A study of Mus musculus with 8 samples.

Results

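Aminoacyl-tRNA synthetases, the enzymes that attach each amino acid to its transfer RNA (tRNA), were examined in heart RNA of wild-type (WT) and TAZG197V mice. The members were chosen by name from a list of 36 genes, 20 for enzymes that serve the cytosol and 16 for enzymes of mitochondria, whose symbols end in 2. The rule uses no measured value, although the list was drawn up with earlier results of these data known, and all 36 were found among the 55471 gene rows and passed the filter on low counts, which left 15084 genes for testing. RNA sequencing had been performed on small pieces of heart from 4 WT and 4 TAZG197V mice, which the study's legends give as 14 weeks old, with no treatment. TAZG197V mice carry a point mutation, introduced by CRISPR/Cas9 in C57BL/6N zygotes, that replaces a glycine of Tafazzin with a valine. Edited founders were bred to C57BL6/J mice for 2 generations, so that both substrains contribute to the background. Tafazzin is encoded on the X chromosome and remodels cardiolipin, the characteristic phospholipid of the inner mitochondrial membrane, and its loss causes Barth syndrome in boys. The mutation was present in every cell of the animal from conception. The study's text states that the mutant mice it used were hemizygous males, while the labels give no sex.

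A synthetase as a rule recognises 1 amino acid and its tRNAs, and translation stalls when charged tRNA is lacking. Mammalian cells keep separate nuclear genes for cytosolic and mitochondrial enzymes in most cases, because mitochondria translate the respiratory chain subunits of their own genome with their own tRNAs. Gars and Kars are exceptions that supply both compartments from 1 gene. In the integrated stress response, phosphorylated eIF2alpha favours translation of the transcription factor ATF4, whose known targets include genes for amino acid synthesis, amino acid uptake and cytosolic tRNA charging.

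Total counts per library ranged from 23055689 to 36301031. A synthetase had from 128 counts (Pars2) to 27052 counts (Eprs) in a library. Levels below are counts relative to library size (CPM), scaled by the trimmed mean of M-values (TMM), and are not corrected for gene length. The edited gene Taz was at 63.8, 58.7, 61.9 and 59.3 CPM in the WT libraries and at 48.03, 50.4, 46.3 and 44.3 CPM in the TAZG197V libraries. All TAZG197V values lay below all WT values, with a log2 fold change of -0.37 (SE 0.055, edgeR adjusted p = 0.00125). Summed cardiomyocyte markers ran from 57326 to 64521 CPM in WT and from 47931 to 52300 CPM in TAZG197V, and 4 of 8 were called lower. Fibroblast markers summed to 887 to 1473 CPM in WT and 610.0 to 840.4 CPM in TAZG197V, with 4 of 6 called lower. Endothelial markers summed to 652 to 924 CPM in WT and 525 to 681 CPM in TAZG197V, with 2 of 5 called lower. Of the macrophage markers 0 of 5 were called in either direction. Among all genes tested 15.1% were called lower and 33.6% in either direction. Red cell markers reached 44112 CPM in WT 4. Brain markers reached 80.1 CPM in WT 4 and 199 CPM in TAZG197V 4 and were as low as 3.45 CPM elsewhere. Atrial markers summed to 1057 CPM and adipocyte markers to 20.7 CPM in WT 2, against lowest WT sums of 3.79 and 0.272 CPM. WT 2 and both libraries numbered 4 therefore stood apart in such markers. No listed marker was at 0 in every library. In such bulk samples fewer cells of a type and less RNA per cell cannot be told apart, and the part of cell composition in the differences below was not tested.

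To address whether the genotypes differed in the transcripts of cytosolic tRNA charging, the 20 cytosolic genes were compared. Transcripts of 18 of them were higher in TAZG197V hearts and 0 were lower, the median log2 fold change being 1.44, in a range from 0.085 to 2.76. A gene was called when its edgeR adjusted p was under 0.05, its fold change passed a minimum and its mean scaled count was at least 50. Of all genes tested 33.6% were called, 18.5% higher and 15.1% lower, and the median log2 fold change was -0.01. More than 2-fold higher were 11 of the 20, against 2.4% of all genes tested. In 18 of the 20 every TAZG197V library lay above every WT library, which held for 19.3% of all genes tested. Summed over the 20 genes, cytosolic synthetase transcripts rose from 1155 ± 47.3 to 3646 ± 268 CPM, or 3.16-fold (SD, n = 4 each).

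**Figure D1:**
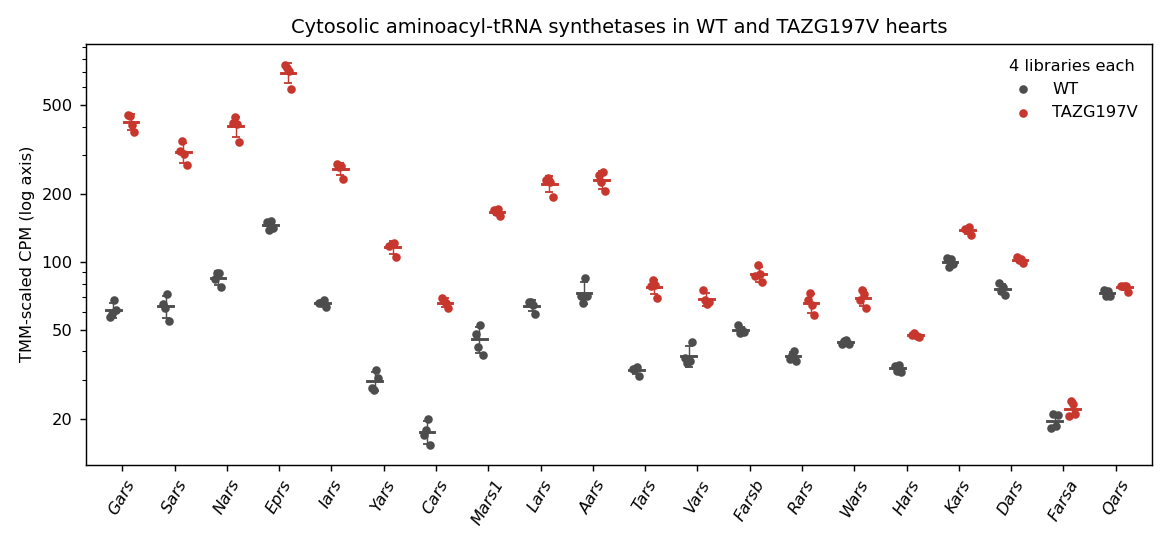
TMM-scaled CPM on a log axis of the 20 cytosolic synthetase genes, ordered by log2 fold change. Points are the 4 WT (grey) and 4 TAZG197V (red) libraries, and lines with bars give the mean and SD. The genotypes are separated in all genes shown except Farsa and Qars at the right.

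Gars, which encodes glycyl-tRNA synthetase, showed the largest change (ENSMUSG00000029777, chr6:55038007-55079500, plus strand, GRCm38). It was at 57.1, 58.5, 67.9 and 61.4 CPM in the 4 WT libraries and at 449, 448, 406 and 377 CPM in the 4 TAZG197V libraries. The lowest TAZG197V value was thus well above the highest WT value, and the log2 fold change was 2.76 (SE 0.077, edgeR adjusted p = 3.82e-07). Sars, the seryl-tRNA synthetase gene (ENSMUSG00000068739, chr3:108424865-108445209, minus strand), was at 65.0, 62.3, 71.7 and 54.6 CPM in WT. In TAZG197V its levels were 313, 344, 301 and 270.4 CPM, again with no overlap, and it rose by 2.28 on the log2 scale (SE 0.074, edgeR adjusted p = 5.06e-07). Nars, for asparaginyl-tRNA synthetase (ENSMUSG00000024587, chromosome 18, minus strand), was at 83.9, 89.7, 89.5 and 77.3 CPM in WT and at 414, 439, 409.7 and 341 CPM in TAZG197V. The groups did not overlap here either (2.24, SE 0.059, edgeR adjusted p = 3.01e-07).

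Eprs encodes a single polypeptide that charges both glutamate and proline tRNAs (ENSMUSG00000026615, chr1:185363044-185428360, plus strand). Its levels were 151, 139, 152 and 142 CPM in WT and 751, 730.0, 709 and 591 CPM in TAZG197V. TAZG197V 4 was the lowest of the mutant libraries but still several times the WT level, and the log2 fold change was 2.24 (SE 0.063, edgeR adjusted p = 3.82e-07). Iars, the isoleucyl-tRNA synthetase gene (ENSMUSG00000037851, chr13:49682100-49734267, plus strand), was at 66.0, 65.8, 67.9 and 62.9 CPM in WT and at 273, 263, 268 and 235 CPM in TAZG197V. Both groups were tight and clear of each other (1.98, SE 0.053, edgeR adjusted p = 3.01e-07). Yars, for tyrosyl-tRNA synthetase (ENSMUSG00000028811, chr4:129189760-129219607, plus strand), was at 27.4, 26.99, 33.1 and 30.4 CPM in WT. It was at 118, 119.8, 122 and 106 CPM in TAZG197V without overlap, a rise of 1.95 (SE 0.063, edgeR adjusted p = 5.06e-07).

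The remaining called genes fell into a group above and a group below a doubling. Cars for cysteine, Mars1 for methionine, Lars for leucine, Aars for alanine and Tars for threonine rose by 1.92, 1.88, 1.81, 1.65 and 1.23 on the log2 scale. Vars for valine, Farsb for phenylalanine, Rars for arginine, Wars for tryptophan, Hars for histidine, Kars for lysine and Dars for aspartate rose by 0.82, 0.82, 0.79, 0.65, 0.49, 0.46 and 0.44. Between Tars at 1.23 and Vars at 0.82 no cytosolic gene was found. The edgeR adjusted p of the 18 called genes was at most 0.000533, and the largest value over 18 alternative fits was 0.00401, for Dars. The SD between libraries of a genotype had a median over the 20 genes of 5.49% of the mean in WT and 7.22% in TAZG197V.

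The 2 genes that were not called were Farsa and Qars. Farsa encodes the alpha subunit of the cytosolic phenylalanyl-tRNA synthetase (ENSMUSG00000003808, chr8:84856989-84869257, plus strand) and was at 18.2, 21.2, 18.6 and 20.8 CPM in WT. In TAZG197V it was at 20.7, 24.1, 23.3 and 20.98 CPM, so that the groups overlapped, and the log2 difference was 0.19 (SE 0.087, edgeR adjusted p = 0.126). Farsb encodes the beta subunit that assembles with it, and the ratio of Farsb to Farsa CPM was 2.87, 2.29, 2.67 and 2.35 in WT. This ratio was 4.18, 4.00, 3.80 and 3.87 in TAZG197V, higher in every TAZG197V library than in any WT library. Qars, the glutaminyl-tRNA synthetase gene (ENSMUSG00000032604, chr9:108507706-108515941, plus strand), was at 75.2, 70.7, 74.1 and 70.5 CPM in WT and at 78.4, 78.4, 78.4 and 73.9 CPM in TAZG197V. TAZG197V 4 lay inside the WT range, and the log2 difference was 0.09 (SE 0.049, edgeR adjusted p = 0.201).

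Sequencing lane did not coincide with genotype, since libraries 1 and 2 of each genotype were in lane 7 and libraries 3 and 4 in lane 8. All 20 cytosolic genes were higher in TAZG197V in both lanes, with a median log2 difference of 1.52 in lane 7 and 1.36 in lane 8. TAZG197V 4 had the lowest level of the TAZG197V libraries in 18 of the 20 genes, and brain markers were highest in the same library. Without both number 4 libraries, and without WT replicate 2, 18 cytosolic genes were again called higher. Reads were counted over exons with no strand setting given in the sources used here, and some genes share exon bases with a neighbour. Of the exon bases of Aars 15.1% lie in exons of other genes, the largest part in Exosc6. For Farsb this share is 9.47%, the largest part in Sgpp2. Mars1 shares 68 bases, or 1.99%, the largest part with Ddit3, a stress response gene on the opposite strand that itself rose by 2.37.

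Several cytosolic synthetases are held together in the multi-synthetase complex, in which Aimp1, Aimp2 and Eef1e1 act as scaffold proteins without charging activity. Transcripts of 7 of its 8 synthetases were higher in TAZG197V, but by unequal amounts. Eprs, Iars, Mars1 and Lars rose by 2.24, 1.98, 1.88 and 1.81 on the log2 scale, whereas Rars, Kars and Dars rose by 0.79, 0.46 and 0.44 and Qars was not called. The ratio of Eprs to Qars CPM was 2.00, 1.96, 2.05 and 2.01 in WT and 9.59, 9.31, 9.05 and 8.00 in TAZG197V. The pair thus moved apart in every mutant library although both proteins belong to the same assembly. All 3 scaffold genes were called higher, with log2 fold changes of 0.90 for Eef1e1, 0.58 for Aimp1 and 0.57 for Aimp2. Of the exon bases of Aimp2 29.4% lie in exons of other genes, the largest part in Eif2ak1, which makes the value of Aimp2 less certain. Outside the complex 11 of 12 cytosolic genes were called higher, with a median of 1.44 against 1.30 inside it.

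**Figure D2:**
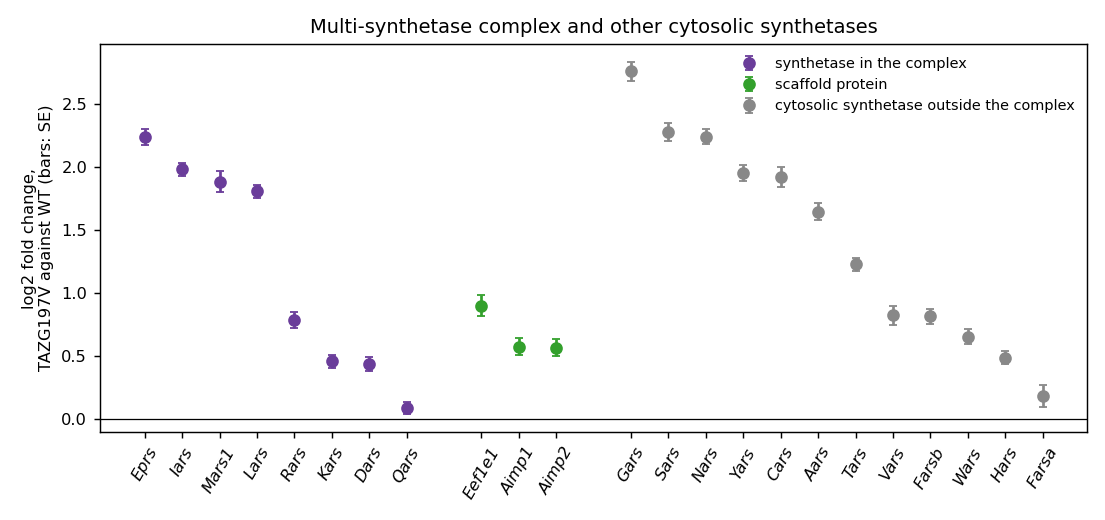
Log2 fold change of TAZG197V against WT with its standard error for the 8 synthetases of the multi-synthetase complex (purple), its 3 scaffold genes (green) and the other 12 cytosolic synthetase genes (grey). Within the complex Eprs, Iars, Mars1 and Lars lie above 1.8 and the other members at or below 0.79.

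The synthetases also belong to 2 structurally unrelated classes that differ in their catalytic fold. Of the 9 class I enzymes listed for the cytosol 8 were called higher, and their median log2 fold change was 1.81. Of the 10 class II enzymes 9 were called higher, with a median of 1.02 and the widest range, from Farsa at 0.19 to Gars at 2.76. Eprs holds a domain of each class and was left out of both counts. Among the enzymes that also serve mitochondria, Gars and Kars differed, since the ratio of Gars to Kars CPM was 0.546, 0.618, 0.661 and 0.626 in WT and 3.19, 3.24, 2.83 and 2.87 in TAZG197V.

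ATF4 binds with C/EBP family partners to composite elements for which the letters TGATGNAA were searched on both strands of RefSeq promoters (GRCm38.p6, from 250 bases before to 50 bases after the annotated start). Of the cytosolic genes 13 had a promoter in this set, and 5 of them held the letters. Over all promoters 1304 of 32851, or 3.97%, held them, and over genes 4.51%. The 5 promoters, whose genes were called higher like 13 of the other 15 cytosolic genes, are shown with the matched letters in capitals and everything else in lower case.
Aars: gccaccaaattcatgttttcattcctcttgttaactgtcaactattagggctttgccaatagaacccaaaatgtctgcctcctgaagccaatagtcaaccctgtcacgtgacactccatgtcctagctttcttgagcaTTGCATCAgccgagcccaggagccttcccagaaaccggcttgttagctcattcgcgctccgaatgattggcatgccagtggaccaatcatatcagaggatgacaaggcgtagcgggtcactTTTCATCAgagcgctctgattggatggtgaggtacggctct
Gars: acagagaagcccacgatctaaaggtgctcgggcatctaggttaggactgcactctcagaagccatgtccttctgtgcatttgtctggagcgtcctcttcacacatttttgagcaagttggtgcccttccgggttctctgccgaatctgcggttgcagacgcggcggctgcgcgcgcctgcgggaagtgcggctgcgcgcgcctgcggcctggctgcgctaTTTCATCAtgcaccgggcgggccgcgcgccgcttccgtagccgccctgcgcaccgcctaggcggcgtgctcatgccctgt
Iars: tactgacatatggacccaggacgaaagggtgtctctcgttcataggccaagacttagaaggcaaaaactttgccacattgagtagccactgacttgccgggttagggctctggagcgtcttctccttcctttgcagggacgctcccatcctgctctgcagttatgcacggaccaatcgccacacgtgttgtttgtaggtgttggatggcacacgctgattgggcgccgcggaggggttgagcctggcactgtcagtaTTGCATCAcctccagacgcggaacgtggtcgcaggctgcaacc
Tars: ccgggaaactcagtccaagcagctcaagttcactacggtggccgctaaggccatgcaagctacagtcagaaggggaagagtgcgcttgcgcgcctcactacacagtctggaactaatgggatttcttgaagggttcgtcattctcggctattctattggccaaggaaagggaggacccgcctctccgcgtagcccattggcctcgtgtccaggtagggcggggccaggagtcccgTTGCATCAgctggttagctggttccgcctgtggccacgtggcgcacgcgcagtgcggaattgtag
Yars: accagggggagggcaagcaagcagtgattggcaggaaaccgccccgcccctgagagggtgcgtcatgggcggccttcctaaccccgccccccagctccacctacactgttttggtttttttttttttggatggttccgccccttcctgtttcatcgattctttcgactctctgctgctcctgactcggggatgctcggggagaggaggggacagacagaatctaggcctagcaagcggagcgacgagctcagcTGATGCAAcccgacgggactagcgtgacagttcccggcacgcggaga

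In Aars (chr8:111033592-111033891, plus strand) the letters occurred 2 times, first 112 bases before the start and again 9 bases after it. Gars (chr6:55037751-55038050, plus strand) and Tars (chr15:11399609-11399908, minus strand) held 1 match each, 30 and 15 bases before the start. In Iars (chr13:49681880-49682179, plus strand) and Yars (chr4:129189653-129189952, plus strand) the match lay 7 and 3 bases after it. The match read TTGCATCA in Iars and Tars, which is TGATGCAA on the other strand, and TTTCATCA in Gars. The stricter letters TGATGCAA were found in 0.895% of all promoters and in those of 4 cytosolic genes, Gars being the 1 that dropped out. The 5 genes with a match had a median log2 fold change of 1.95, with Tars the lowest at 1.23. The 8 without one (Dars, Eprs, Farsa, Farsb, Kars, Mars1, Qars and Sars) had a median of 0.64, but this group also held Sars at 2.28 and Eprs at 2.24, and 6 of the 8 were called higher. A match is a description of letters in this window and says nothing of binding. Cars, Hars, Lars, Nars, Rars, Vars and Wars had no entry, and all 7 were called higher with a median of 0.82.

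Mitochondrial synthetases were compared in the same way, to ask whether the enzymes that charge tRNAs inside the organelle moved with the cytosolic ones. Of the 16 genes 2 were called higher (12.5%), 2 were called lower (12.5%) and 12 were not called, and the median log2 fold change was -0.04. Both shares lay below those of all genes tested, 18.5% and 15.1%. Within lanes the median log2 difference changed sign, from 0.19 in lane 7 to -0.07 in lane 8, and 6 of the 16 genes were higher in both lanes. No called mitochondrial gene differed by 2-fold. Of the 14 mitochondrial genes with a RefSeq promoter 0 held the letters TGATGNAA, against 4.51% of all genes (Hars2 and Pars2 had no entry). A list this short cannot tell 0 matches from that share. The 4 calls were made in each of 18 alternative fits, including those without both number 4 libraries and without WT replicate 2.

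**Figure D3:**
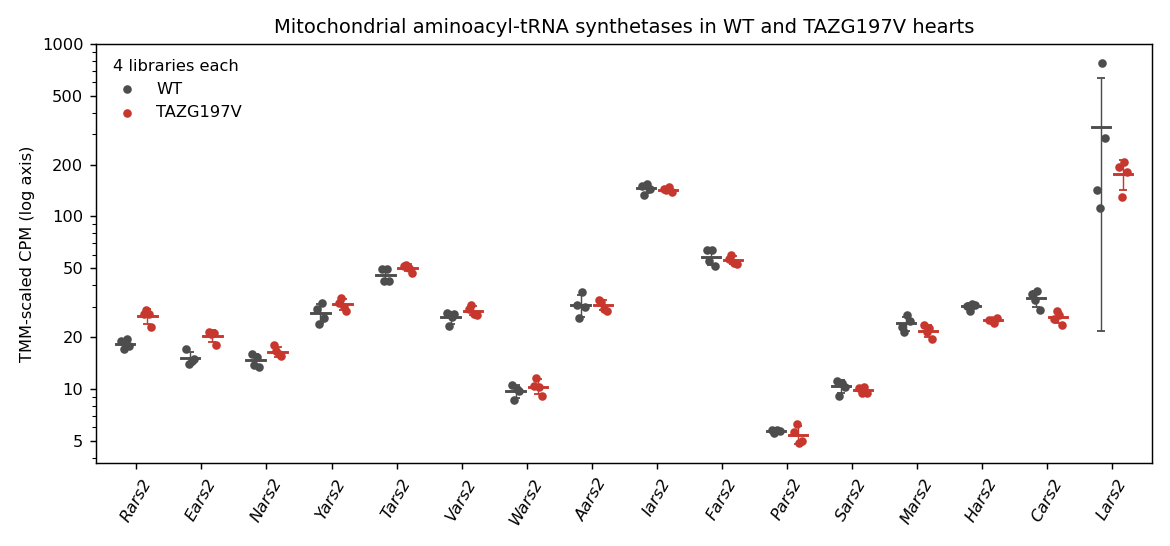
TMM-scaled CPM on a log axis of the 16 mitochondrial synthetase genes, ordered by log2 fold change. Points are the 4 WT (grey) and 4 TAZG197V (red) libraries, and lines with bars give the mean and SD. Only Rars2, Ears2, Hars2 and Cars2 were called and free of overlap between genotypes, and Lars2 has a wide WT spread with WT 3 at 775 CPM.

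Rars2, the mitochondrial arginyl-tRNA synthetase gene (ENSMUSG00000028292, chr4:34614957-34660167, plus strand), was at 18.8, 17.0, 19.4 and 17.7 CPM in WT and at 27.2, 28.7, 27.4 and 22.8 CPM in TAZG197V. All mutant values were above all WT values, and the log2 fold change was 0.52 (SE 0.057, edgeR adjusted p = 0.000307). Ears2, for glutamyl-tRNA synthetase (ENSMUSG00000030871, chr7:122037213-122067263, minus strand), was at 16.9, 14.0, 14.5 and 14.8 CPM in WT and at 21.4, 20.9, 20.98 and 17.97 CPM in TAZG197V. The groups were separate, with TAZG197V 4 nearest to WT (0.41, SE 0.079, edgeR adjusted p = 0.00432). Ears2 also serves the indirect route to glutaminyl-tRNA in mitochondria, in which glutamate is first placed on the glutamine tRNA and then converted by the GatCAB amidotransferase.

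Cars2, the mitochondrial cysteinyl-tRNA synthetase gene (ENSMUSG00000056228, chr8:11513977-11550783, minus strand), was at 35.5, 32.8, 37.0 and 28.7 CPM in WT. In TAZG197V it was at 25.5, 28.2, 26.7 and 23.6 CPM, below every WT library though by a narrow margin, and fell by 0.36 on the log2 scale (SE 0.069, edgeR adjusted p = 0.00411). Hars2, for histidyl-tRNA synthetase (ENSMUSG00000019143, chromosome 18, plus strand), was at 30.4, 28.4, 31.1 and 30.6 CPM in WT and at 25.0, 25.0, 24.1 and 25.8 CPM in TAZG197V. It fell by 0.28 with no overlap (SE 0.056, edgeR adjusted p = 0.00540). Hars2 and Hars are transcribed away from each other from starts that overlap by 198 bases, and 195 exon bases belong to both. The ratio of Hars to Hars2 CPM was 1.12 ± 0.0418 in WT against 1.89 ± 0.0658 in TAZG197V (SD over 4 mice), so that these neighbours changed in opposite directions.

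Lars2, the mitochondrial leucyl-tRNA synthetase gene (ENSMUSG00000035202, chr9:123366927-123462666, plus strand), had the largest fitted difference of the mitochondrial list but was not called. It was at 141, 112, 775 and 286 CPM in WT and at 193, 129, 207 and 181 CPM in TAZG197V. The genotypes overlapped and WT 3 was far above the other WT libraries, so that the log2 difference of -0.88 had an SE of 0.453 (edgeR adjusted p = 0.158). Without WT replicate 3 the difference was -0.05 (edgeR adjusted p = 0.840), and without WT replicate 1 it was -1.26 and passed (edgeR adjusted p = 0.0361). A noncoding transcript, a microRNA gene and a ribosomal RNA gene from other loci, chosen after their values were seen, had the same order of levels in WT. Gm15564 was at 18.7, 13.6, 145 and 51.3 CPM in WT and at 30.05, 14.7, 34.2 and 26.8 CPM in TAZG197V. Mir6236 was at 20.2, 13.8, 176 and 55.3 CPM in WT and at 30.7, 18.9, 40.2 and 31.8 CPM in TAZG197V. The mitochondrial ribosomal RNA gene mt-Rnr2 was at 6842, 5641, 7769 and 7093 CPM in WT and at 4390, 3735, 5576 and 6541 CPM in TAZG197V. These 3 rows were highest in WT 3 and lowest in WT 2 among the WT libraries, like Lars2, but mt-Rnr2 spread far less than Lars2 in WT and was highest in TAZG197V 4 among the mutants, where Lars2 was highest in TAZG197V 3. The log2 difference of mt-Rnr2 itself was -0.48 (edgeR adjusted p = 0.0403). Of the 50-base windows of Lars2 exons 0.196% also occur in another annotated gene, and whether reads of ribosomal RNA-like sequence entered the Lars2 counts was not tested.

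The other 11 mitochondrial genes lay between -0.17 for Mars2 and 0.16 for Nars2 on the log2 scale, with edgeR adjusted p from 0.0823 to 0.746. Iars2, the partner of the strongly raised Iars, was at 146 ± 8.91 CPM in WT against 143 ± 3.94 CPM in TAZG197V (SD over 4 mice). Its gene lies 33647 bases from Eprs on chromosome 1, and it shares 24.2% of its exon bases with other genes, the largest part with Rab3gap2. Sars2 was at 10.3 ± 0.882 and 9.85 ± 0.414 CPM, and Fars2 at 58.6 ± 6.14 and 55.8 ± 3.00 CPM. These groups overlapped, and a p that misses the threshold does not show equal levels. TAZG197V 4 was the lowest TAZG197V library in 13 of the 16 mitochondrial genes, and WT 2 was the lowest WT library in 13 of 16.

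Summed over the 16 genes, mitochondrial synthetase transcripts had a sum of 824 ± 331 CPM in WT against 678 ± 33.01 CPM in TAZG197V (SD over 4 mice), with the WT spread set by Lars2. With Lars2 left out the sums were 496 ± 36.4 and 501 ± 20.6 CPM, a ratio of 1.01. The ratio of cytosolic to mitochondrial sums was 1.77, 1.99, 0.930 and 1.45 in WT and 5.397, 5.92, 5.21 and 4.99 in TAZG197V. It did not overlap between genotypes, and with Lars2 left out it rose from 2.34 ± 0.106 to 7.27 ± 0.250. Since CPM is not divided by gene length, only the difference of such ratios between genotypes is informative.

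Cytosolic and mitochondrial enzymes for the same amino acid gave 17 pairs, in which Eprs was set against both Ears2 and Pars2, and Fars2 against both Farsa and Farsb. The log2 fold change of the cytosolic gene exceeded that of its mitochondrial partner in 17 of 17 pairs. The log2 ratio of the 2 genes was higher in every TAZG197V library than in every WT library in 16 pairs and overlapped in 1, Farsa with Fars2. Among single genes tested 19.3% lay above WT in this way, and no such share was computed for pairs of other genes. The pairs reuse the levels given above, so their count is not independent of the cytosolic rise. Its change from WT to TAZG197V had a median of 1.81 and ran from 0.24 to 2.35. For Sars and Sars2, the pair with the largest change, the log2 ratio was 2.54, 2.77, 2.74 and 2.40 in WT and 4.95, 5.18, 4.87 and 4.84 in TAZG197V. The libraries of the 2 genotypes were more than 2 log2 units apart. For Rars and Rars2, where both genes rose, it was 0.98, 1.18, 1.06 and 1.03 in WT and 1.32, 1.35, 1.24 and 1.34 in TAZG197V. That change of 0.25 was the smallest without overlap.

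**Figure D4:**
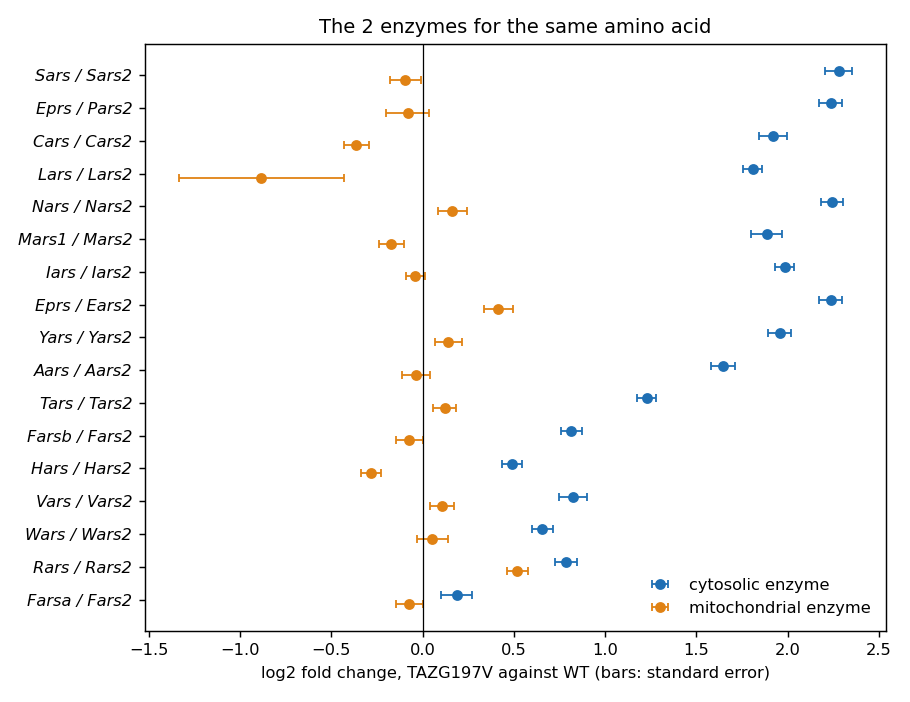
Log2 fold change of TAZG197V against WT with its standard error for the cytosolic (blue) and the mitochondrial (orange) enzyme of each amino acid, 17 pairs ordered by the change of their CPM ratio. The cytosolic point lies to the right of the mitochondrial point in each pair.

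Next, 24 further genes of tRNA charging and processing were counted, among them the 3 scaffold genes given above. Of the 24 genes 13 were called higher (54.2% against 18.5% of all genes tested) and 2 were called lower (8.33% against 15.1%). The other 9 were not called, and the median log2 fold change was 0.30. None of the 19 of these genes with a RefSeq promoter held the letters TGATGNAA, Xpot included, against 4.51% of all genes. Xpot, the exportin that carries mature tRNAs out of the nucleus, rose most. It was at 35.5, 36.1, 38.6 and 35.2 CPM in WT and at 146, 135, 133 and 109 CPM in TAZG197V. The groups were far apart (1.83, SE 0.065, edgeR adjusted p = 8.91e-07), although 14% of 50-base windows of its exons also occur in other genes, the largest part in Gm7389. Eef1e1 of the complex scaffold rose from 9.59 ± 0.380 to 18.1 ± 2.16 CPM (0.90). Rpp40, a subunit of ribonuclease P that trims the 5′ ends of tRNA precursors, changed by 0.75, and Dtd1, which removes D-amino acids from mischarged tRNA, by 0.60.

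**Figure D5:**
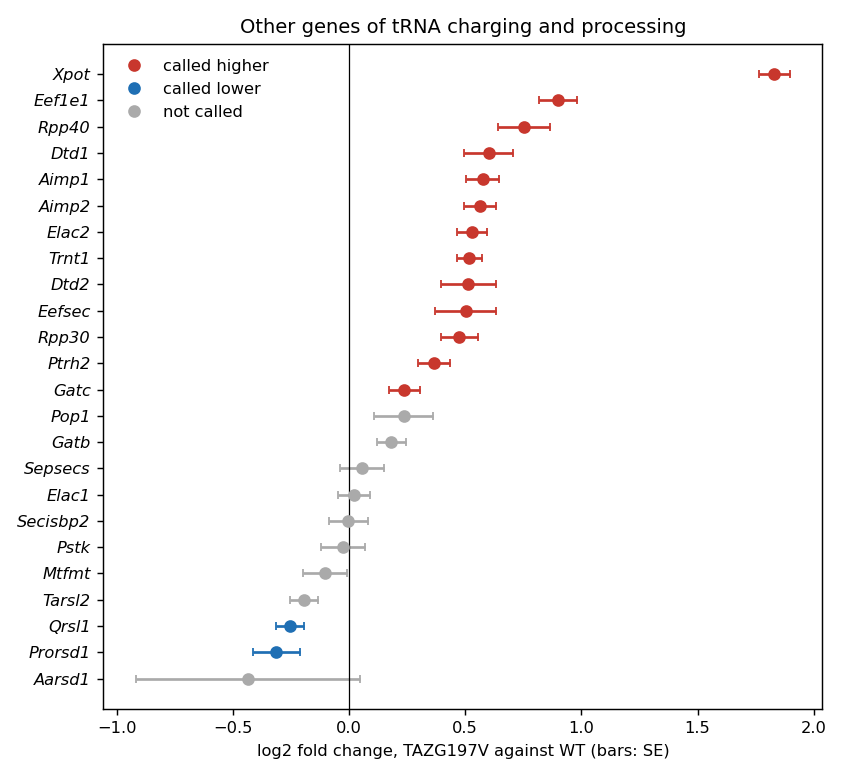
Log2 fold change of TAZG197V against WT with its standard error for 24 further genes of tRNA charging and processing. Genes called higher are red, called lower blue and not called grey, and Xpot at 1.83 is the farthest to the right.

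Counts by role were small, and differences between roles were not tested. Of the 7 genes of tRNA end processing and export 5 were called higher (71.4% against 18.5% of all genes tested). Of the 4 genes of the selenocysteine route only Eefsec was called higher (25%, near that share), at 0.50 and in 15 of 18 alternative fits, and 0 were called lower. The 3 subunits of the mitochondrial GatCAB amidotransferase differed, with Gatc at 0.24 (called higher, in 13 of 18 alternative fits), Gatb at 0.18 (edgeR adjusted p = 0.0505) and Qrsl1 at -0.25 (called lower). Qrsl1 and Prorsd1, which resembles the editing domain of prolyl-tRNA synthetases and changed by -0.31, overlapped between genotypes and were called in 10 and 8 of 18 alternative fits. Tarsl2, a further cytosolic threonyl-tRNA synthetase gene outside the list of members, was below WT in every TAZG197V library (50.1 ± 2.14 against 44.0 ± 2.18 CPM) but missed the call through its small fold change (-0.19, edgeR adjusted p = 0.0318).

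A set of 12 reference genes of the integrated stress response gave the wider setting. All 12 were called higher, against 18.5% of all genes tested. They had been chosen as known genes of this response with earlier results of these data known, so that this count is not an independent result. Atf3 overlapped between genotypes and was called in 15 of 18 alternative fits, with an edgeR adjusted p of up to 0.0704. For the 12 genes the median log2 fold change was 4.22. Atf4 itself was at 63.1, 70.5, 64.7 and 51.6 CPM in WT and at 369, 372, 362 and 283 CPM in TAZG197V, with no overlap and a log2 fold change of 2.50. Mthfd2, Asns, Slc7a11, Phgdh and Trib3, which serve folate metabolism, asparagine synthesis, cystine uptake, serine synthesis and feedback on ATF4, rose by 6.46, 6.10, 6.08, 5.96 and 5.31. Slc7a11 had 1, 8, 1 and 12 counts in the WT libraries and Phgdh 10, 22, 7 and 23, so that their sizes are uncertain. Over the alternative fits Slc7a11 (SE 0.478) ran from 5.72 to 7.13 and Phgdh (SE 0.262) from 5.71 to 6.57. The largest synthetase rise, that of Gars at 2.76, was below this median. Wars is also known as an interferon-inducible gene, and 12 interferon response genes were counted for that reason. Of these 1 was called higher (Ifit3, 0.70) and 1 lower (Irf1, -0.28), or 8.33% each against 18.5% and 15.1% of all genes tested, and the median was 0.01. Both overlapped between genotypes and were called in 10 and 12 of 18 alternative fits.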

How the data were processed

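The authors demultiplexed and trimmed single-end reads of 50 bases with bcl2fastq 2.20.0, checked them with FastQC 0.11.9, aligned them to mm10 with STAR 2.7.3a and counted reads over exons with featureCounts of Subread 2.0.0. The deposited values are raw counts per Ensembl gene, 1 table per library. The annotation release and the strand setting are not given in the sources used here. Columns of other samples numbered 0.

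GENCODE M21 supplied symbols and positions (GRCm38, the assembly that mm10 names), where Mars1 is listed as Mars. In R 4.3.3, edgeR 4.0.16 was used with filterByExpr, TMM scaling and 2 surrogate variables from sva 3.50.0 (genotype protected, seed 1). Genotype was tested with the two-sided quasi-likelihood F-test, and p-values were adjusted by Benjamini-Hochberg over the 15084 genes tested. A call required an adjusted p under 0.05, a fold change beyond 1.15 and a mean scaled count of at least 50. The SE is the log2 fold change divided by the square root of F. Within-lane differences used log2(CPM + 0.5). The fit was tested on simulated data, where it recovered the fold changes but missed part of the genes changed by 2-fold or less. A first criterion on the number of changed genes called was not met, equally so without surrogate variables, and was replaced by criteria on fold change, false calls and calls relative to the fit without surrogate variables.

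Values in every library are given for the 6 cytosolic and 4 mitochondrial genes with the largest log2 fold change, for called genes opposite to the majority of their list, for cytosolic genes not called and for Taz. Up to 5 called genes of each further list are named, and other genes named beside them were chosen after their values were seen. The members and lists were chosen with earlier results of these data known. The labels call the libraries separate samples without stating litters or dissection dates. The p-values set the genotype difference against the variation between these samples that remained after the surrogate variables. Alternatives were DESeq2 1.42.0, other scalings, filters, covariates and cut-offs, and omission of libraries. Amino acid sequences were not analysed here. 1 gene of the further list of tRNA charging and processing is not reported here and was left out of its counts.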

Additional observations from a re-analysis of the deposited data

Results flagged for a closer look

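Among 76 groups of 4 libraries, those of the 36 synthetases and the 2 summed levels, 2 had a library set off from its nearest neighbour by more of the range than Dixon's critical value at 95%, where about 3.8 are found by chance at 1 in 20. Qars in TAZG197V 4 was at 73.9 CPM against 78.4 to 78.4 CPM in the other TAZG197V libraries, a gap of 0.989 of the range. Ears2 in TAZG197V 4 was at 17.97 CPM against 20.9 to 21.4 CPM, a gap of 0.843. No cause was tested for either.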

How the results depend on the processing

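The 18 cytosolic calls and the 4 mitochondrial calls were made in each of 18 alternative fits, and 33 of the 36 synthetases kept their direction and their side of the threshold in all of them. With each library left out in turn, 18 cytosolic genes were called higher throughout, 2 mitochondrial genes were called higher and 2 to 3 lower, the third being Lars2 without WT replicate 1. The median log2 fold change ran from 1.41 to 1.49 for cytosolic and from -0.063 to 0.014 for mitochondrial genes. A replicate block left 18 cytosolic genes called higher, 2 mitochondrial genes higher and 2 lower. Deviations from the genotype means correlated at 0.277, 0.0436, 0.280 and 0.416 for libraries sharing a number, and at -0.464 to 0.317 for others, so the numbers were not treated as pairing. Aars2, at -0.04, was positive at 0.027 with no low-count filter, 0.00079 with 1 surrogate variable, 0.00090 with lane, 0.0071 with the replicate block and 0.046 without both number 4 libraries, and between -0.083 and 0.048 when 1 library was left out. Wars2, at 0.05, ran from -0.0094 to 0.15 in the latter fits. With a fold change of at least 1.5, 15 cytosolic, 0 mitochondrial and 4 accessory genes were called higher, 0 mitochondrial, 0 accessory and 0 interferon genes lower, and 999 and 850 of all genes higher and lower, by construction. At an adjusted p under 0.01, 0 accessory and 0 interferon genes were called lower, 0 interferon genes higher and 1286 of all genes lower. Accessory genes called lower numbered 1 under DESeq2, with no low-count filter and with 1 surrogate variable, 0 with no surrogate variables, with lane and with the replicate block, and 1 to 2 with 1 library left out. Interferon genes called higher numbered 3 with no low-count filter and without both number 4 libraries, 0 with no or 1 surrogate variable, with lane and with the replicate block, and 0 to 3 with 1 library left out. Those called lower numbered 0 under DESeq2 and without both number 4 libraries, and 0 to 2 with 1 library left out. The cause was not tested. Leaving Lars2 out of the mitochondrial sums was chosen after seeing the data.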
